A study of Mus musculus with 11 samples.

Results

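The genes described here encode proteins of the mitochondrial ribosome. They were taken by name, as protein-coding genes of the count table whose symbol is Mrpl or Mrps followed by a number and at most 1 letter, and 78 of the 55414 genes in the table met this. RNA had been sequenced from CD8+ T cells of OT-I genotype, whose transgenic receptor recognises a peptide of ovalbumin, and every library shares that genotype. The 4 naive libraries came from cells kept for 12 h with no treatment. The 4 stimulated libraries came from cells given N4, the activating peptide, and DMSO, the solvent, for 12 h. The 3 Torin libraries, with the replicate numbers 1, 3 and 4, came from cells given N4 with Torin, which blocks the kinase mTOR, over the same 12 h. The labels state neither the age of the mice nor whether libraries came from separate animals, so the p-values below measure only the spread between these libraries, which may be technical.

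Mitochondria keep their own ribosome, with a large and a small subunit, which translates the few messenger RNAs encoded by mitochondrial DNA into core subunits of the respiratory chain and the ATP synthase. All proteins of this ribosome are encoded in the nucleus, made in the cytosol and imported, while its ribosomal RNAs are transcribed inside the organelle. Many of its proteins descend from bacterial ribosomal proteins and the others have no bacterial counterpart. T cells that leave quiescence enlarge their mitochondria and their capacity for protein synthesis, and mTOR is a kinase that couples nutrient and growth signals to translation. The members were divided into 29 large-subunit proteins with a bacterial counterpart, 21 large-subunit proteins without one, 16 small-subunit proteins with one and 10 small-subunit proteins without one. Mrps30 and Mrps18a sit in the large subunit despite their names and were counted there. Mrpl55 and Mrps36 were left outside these classes, Mrps36 because its product is also known as a subunit of the 2-oxoglutarate dehydrogenase complex.

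The DNA before the start sites shows what these genes share and where they differ. RefSeq promoter windows, from 250 bases before to 50 bases after the start of the gene on build GRCm38.p6, were found for 69 of the 78 members. Several windows were found for 3 of them. Shares below are of genes, and a gene counted as a match if any of its windows matched. The NRF1 motif, with 1 free base, stood on either strand in 13 of the 69 (18.8%). It stood in 5.19% of all 27025 genes with a window and in 10.6% of 11030 tested protein-coding genes with a window. The letters CCGGAAG, bound by ETS factors such as GABPA, stood in 26 of 69 (37.7%), against 9.93% of all these genes and 18.7% of the tested protein-coding ones. The letters AAGATGGCG, bound by YY1, stood in 8 of 69 (11.6%), against 1.64% and 3.26%. The E-box CACGTG, bound by MYC with MAX, stood in 5 of 69 (7.25%), against 8.09% and 11.1%. Each was searched on both strands. None of these words lies inside another, though neighbouring matches may share bases. Of 60 cytosolic ribosomal protein genes with a window, 25 (41.7%) held the ETS word, so its share was not higher in the members than in that set. The NRF1 word stood in 5 of those 60 (8.33%), the YY1 word in 3 and the E-box in 6. Differences between the 2 sets were not tested. A terminal pyrimidine run is known as the part by which mTOR controls the translation of cytosolic ribosomal protein messages. It was searched as a C followed by 4 pyrimidines at the start site. It was found in 0 of 69 members, against 13 of 60 cytosolic ribosomal protein genes (21.7%) and 3.01% of all genes with a window. Most cytosolic ribosomal protein genes also had no match at the annotated start, so the 0 of 69 does not show that the run is absent. A match of letters is a description and not a binding site. Printed 5′ to 3′ are the 120 bases before the start site of 6 members whose values are followed below, with matched letters in capitals: Mrpl12 and Mrpl17 hold the NRF1 word, Mrps22 and Mrpl58 the ETS word, and Mrpl20 the E-box, while Mrps6 holds none of the 4 words in its window.
Mrpl12 (chr11:120484517-120484636, plus strand): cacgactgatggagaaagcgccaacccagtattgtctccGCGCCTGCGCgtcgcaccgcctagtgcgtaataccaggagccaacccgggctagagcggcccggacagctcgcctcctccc
Mrpl17 (chr7:105811088-105811207, minus strand): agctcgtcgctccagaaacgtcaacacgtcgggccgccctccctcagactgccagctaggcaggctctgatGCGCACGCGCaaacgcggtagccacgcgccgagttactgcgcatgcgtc
Mrps22 (chr9:98601680-98601799, minus strand): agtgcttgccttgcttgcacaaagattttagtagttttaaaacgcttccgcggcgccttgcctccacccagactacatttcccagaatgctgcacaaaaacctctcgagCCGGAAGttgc
Mrpl58 (chr11:115403632-115403751, plus strand): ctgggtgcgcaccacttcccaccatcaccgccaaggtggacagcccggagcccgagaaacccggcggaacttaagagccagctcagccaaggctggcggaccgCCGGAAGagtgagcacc
Mrpl20 (chr4:155802758-155802877, plus strand): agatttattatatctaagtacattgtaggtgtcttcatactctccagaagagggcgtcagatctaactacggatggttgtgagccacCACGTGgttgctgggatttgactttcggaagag
Mrps6 (chr16:92058216-92058335, plus strand): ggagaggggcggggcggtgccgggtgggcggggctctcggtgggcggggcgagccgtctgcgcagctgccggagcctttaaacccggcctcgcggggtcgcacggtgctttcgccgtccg
Changes of the members can be set beside these letters. On stimulation the 13 members with the NRF1 word had a median log2 change of 0.77 and the 56 without it 1.05, and the 26 with the ETS word had 1.03, as did the 43 without it.

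Totals ran from 241865667 to 405884097 estimated counts per library, and all 78 members passed the filter on low counts and were among the 22238 genes tested. Levels below are CPM, counts per 1000000 library counts after TMM composition factors, which ran from 1.13 to 1.35 in naive, 0.727 to 0.963 in stimulated and 0.939 to 0.976 in Torin libraries. Among markers of the labelled cell type, Cd3e stood at 190.0 to 615 CPM and Cd8a at 91.0 to 270.0 CPM over all libraries, and Cd4 was below 1 CPM in each. The 8 T cell markers summed to 4800 to 6120 CPM in naive, 2160 to 2590 CPM in stimulated and 3230 to 3330 CPM in Torin libraries. The sum was thus lower where most members were higher. Cd3d, Cd3e, Cd3g, Cd8b1 and Lck were lower in every stimulated than in every naive library, while Cd8a and Cd2 overlapped. Cd5 went the other way, with 24.7 to 69.7 CPM in naive, 102 to 226 in stimulated and 139 to 222 in Torin libraries. Libraries also held transcripts of genes chosen as markers of other cells. In naive 2 and stimulated 2 granulocyte markers summed to 8550 and 2070 CPM, and the immunoglobulin gene Igkc stood at 46900, 14300 and 13100 CPM in naive 4, stimulated 4 and Torin 4 but at most 16.8 CPM elsewhere. Summed monocyte and macrophage markers, 7 genes, ran from 1110 to 3100 CPM in naive, 138 to 340.0 in stimulated and 53.1 to 80.0 in Torin libraries. Adgre1 and Itgam were below 1 CPM in all libraries of the last 2 groups. Ly6c2 made up most of the sum in every library but naive 2. It held 967 to 1480 CPM in naive, 130 to 318 in stimulated and 41.2 to 66.5 in Torin libraries. Which cells held the Ly6c2 transcripts cannot be told from bulk RNA. Lyz2 stood at 1770 CPM in naive 2 and at 96.7 to 175 CPM in the other naive libraries. Erythroid and platelet markers, 6 genes, summed to 266 to 904 CPM in naive, 147 to 461 in stimulated and 149 to 327 in Torin libraries. The part of these markers and other cells in the results was not tested, other than by leaving out libraries.

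The first comparison asked what stimulation changed in these genes relative to naive cells. Most of the genes rose: 56 of 78 members were higher in stimulated cells, 2 were lower and 20 did not pass the threshold (edgeR quasi-likelihood test, Benjamini-Hochberg adjusted p below 0.05 over all genes). Among all 22238 genes tested 39.5% were called, 19.2% higher and 20.2% lower. The median log2 change was 1.02 over the members and -0.22 over all genes. In 40 of the 56 the rise was at least 2-fold. Over all genes it was so in 3176 of the 4272 called higher, a similar share, so the 40 are no result about the members. Every naive library lay below every stimulated one in 55 members (19.8% of all genes), and every naive library lay above every stimulated one in 1 (21.7% of all genes). Summed over the members, the level was 6870 to 8060 CPM in naive against 14600 to 21100 CPM in stimulated libraries, and without composition factors the members held 0.784 to 0.961% of all counts in naive and 1.40 to 1.53% in stimulated libraries. In bulk RNA, more RNA per cell and more cells of a kind cannot be told apart. The scaling matters here. With library totals alone the median of all genes moved from -0.22 to -0.71, and of the 22238 genes 2600 were higher and 6529 lower. The median of the members moved from 1.02 to 0.52, and the members called became 37 higher and 9 lower. Under that scaling 14 members changed sign, among them 2 called higher, Mrps24 (0.40 with and -0.09 without composition factors) and Mrps35 (0.36 and -0.12).

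**Figure D1:**
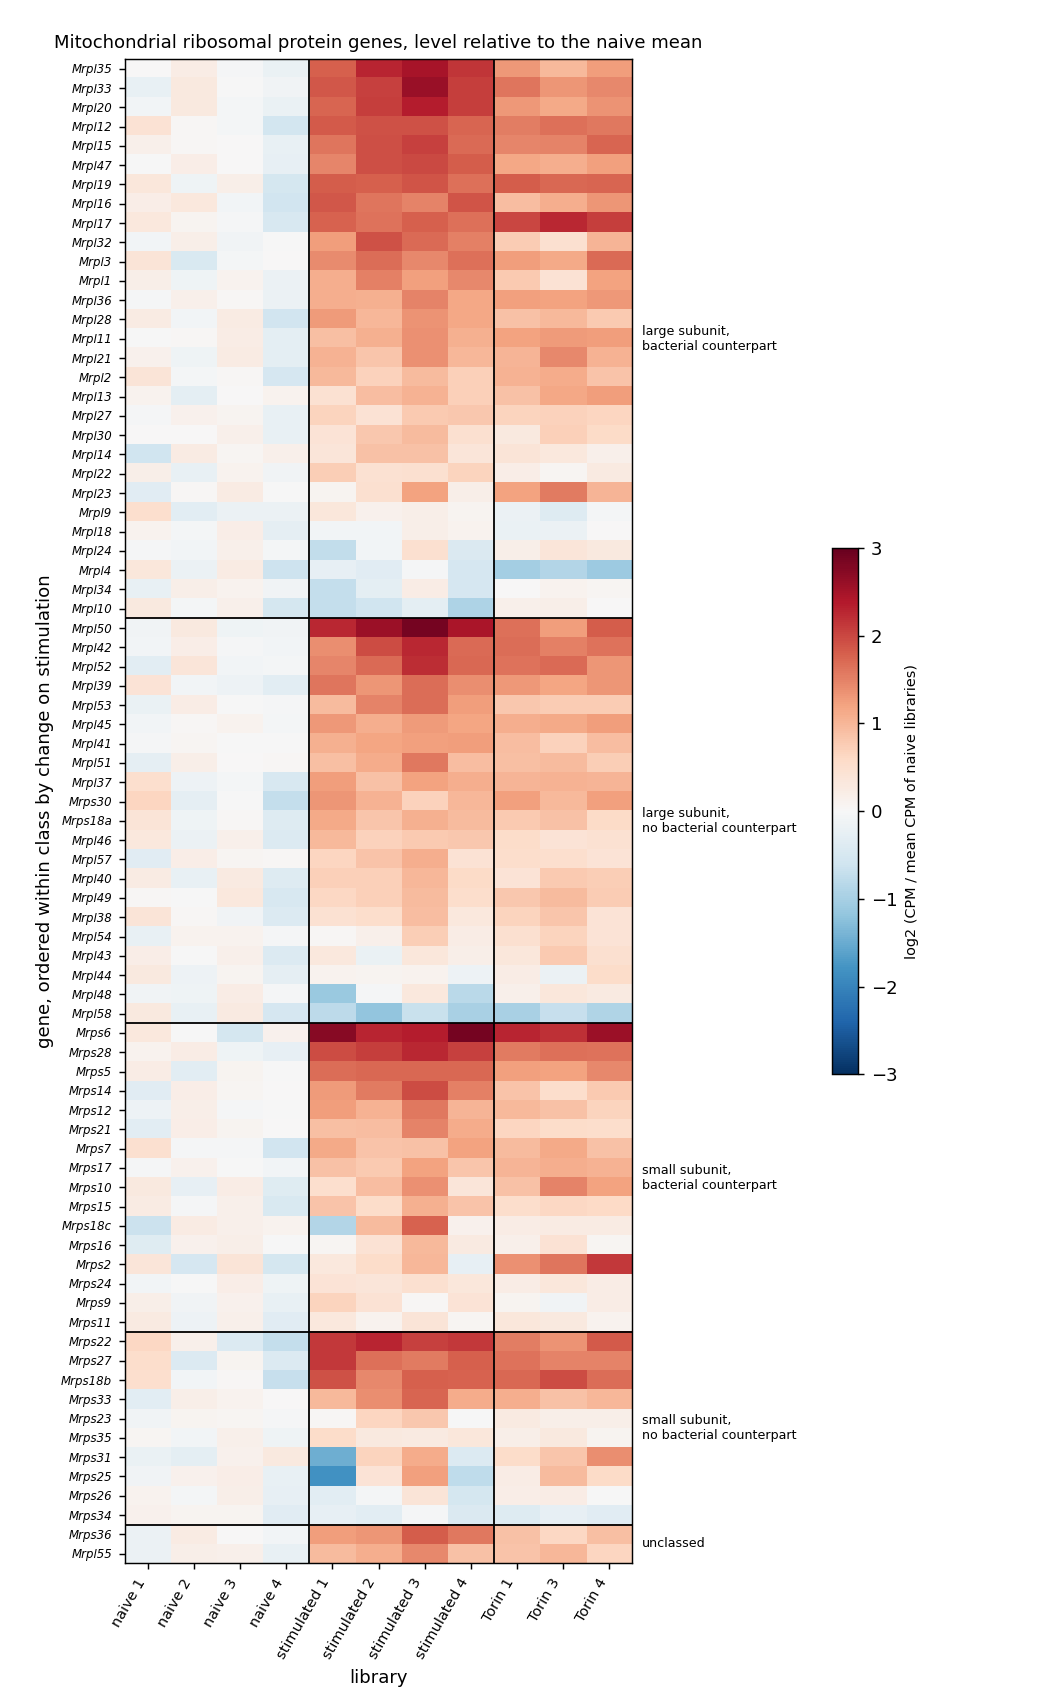
Level of each of the 78 members (rows, grouped by subunit and bacterial ancestry) in each of the 11 libraries (columns), as log2 of CPM over the mean CPM of the naive libraries. Most stimulated and Torin columns are red, for levels above the naive mean, with Mrpl58 and Mrpl4 among the genes that are blue, and in Mrps25 and Mrps31 stimulated 1 and 4 are blue while stimulated 2 and 3 are red.

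The large subunit rose in most of its members. Of the 29 proteins with a bacterial counterpart 22 were higher and 1 lower, with a median log2 change of 1.12, and of the 21 without one 16 were higher and 1 lower, with a median of 1.0. Mrpl35 stood at 100, 117, 97.4 and 87.4 CPM in naive 1 to 4 and at 346, 486, 553 and 441 CPM in stimulated 1 to 4. The groups were far apart, and the log2 change was 2.18 (SE 0.17, adjusted p = 9.47e-06, edgeR). Mrpl33 had 310.0, 445, 358 and 335 CPM in naive against 1320, 1510, 2170 and 1520 CPM in stimulated libraries, a log2 change of 2.17 (SE 0.18). Mrpl20, whose bacterial relative binds ribosomal RNA early in assembly, had 173, 222, 174 and 158 CPM against 606, 766, 929 and 764 CPM, a log2 change of 2.08 (SE 0.16). In each of these genes stimulated 3 was the highest library and stimulated 1 the lowest of its group. Mrpl12, the stalk protein that recruits translation factors, was more even, with 121, 92.2, 86.0 and 61.2 CPM in naive against 325, 336, 337 and 301 CPM in stimulated libraries. Its log2 change was 1.85 (SE 0.18, adjusted p = 2.61e-05, edgeR).

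Among large-subunit proteins without a bacterial counterpart, Mrpl50 rose most. Its level was 30.1, 39.6, 29.6 and 29.9 CPM in naive against 156, 192, 236 and 175 CPM in stimulated libraries, a log2 change of 2.56 (SE 0.19, adjusted p = 7.24e-06, edgeR). Mrpl42, at 160.0 ± 15.4 CPM in naive cells (mean ± SD, n = 4 in each group), rose to 580.0 ± 147 CPM and Mrpl52 from 219 ± 46.1 to 762 ± 175 CPM. Mrpl41 changed less but with little spread, from 114 ± 3.06 to 259 ± 14.7 CPM (log2 change 1.19, SE 0.11). The misnamed pair also rose, Mrps30 from 36.0 ± 14.7 to 73.6 ± 12.7 CPM and Mrps18a from 62.4 ± 14.1 to 125 ± 11.8 CPM, but neither was called with library totals alone (0.53 and 0.50). Mrpl54 had 241 ± 24.7 and 299 ± 70.1 CPM, with overlapping groups (adjusted p = 0.162, edgeR).

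The small subunit held the gene with the largest change. Of its 16 proteins with a bacterial counterpart 11 were higher and none lower, with a median log2 change of 0.89, and of the 10 without one 5 were higher and none lower, with a median of 0.39. With library totals alone those 10 had 4 higher, 2 lower and a median of -0.11. Whether the classes differ was not tested. Mrps6 stood at 101, 80.2, 56.1 and 88.1 CPM in naive against 535, 393, 416 and 597 CPM in stimulated libraries, a log2 change of 2.58 (SE 0.21, adjusted p = 1.03e-05, edgeR). Here stimulated 4 and 1 were the higher libraries, unlike in Mrpl35 or Mrpl20. Mrps28 had 98.4, 108, 83.8 and 77.7 CPM against 356, 387, 444 and 381 CPM, a log2 change of 2.09 (SE 0.14). Mrps22, a small-subunit protein without a bacterial counterpart, is expressed at a low level, at 9.17, 6.71, 4.50 and 3.66 CPM in naive against 26.3, 29.2, 24.8 and 26.1 CPM in stimulated libraries. Its log2 change was 2.14 (SE 0.27, adjusted p = 0.0001, edgeR). Mrps12, the protein of the decoding centre, rose from 214 ± 20.2 to 504 ± 95.7 CPM (log2 change 1.23), and Mrps21 from 279 ± 40.1 to 608 ± 120 CPM (1.12). Of the 3 paralogs of bacterial protein S18, only Mrps18c was counted among proteins with a bacterial counterpart. The classes without a counterpart thus include relatives of S18, Mrps18a and Mrps18b. Mrps18b rose from 46.4 ± 15.2 to 155 ± 20.3 CPM and Mrps18a as given above, while Mrps18c did not pass with a log2 change of 0.80 (SE 0.44). Differences among the 3 were not tested. Of the unclassed members, Mrps36 rose from 123 ± 15.3 to 351 ± 64.5 CPM. Its pseudogenes Mrps36-ps1 and Mrps36-ps2 held 3.99 to 15.5 and 4.03 to 13.5 CPM, and how reads were divided among these copies is uncertain.

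**Figure D2:**
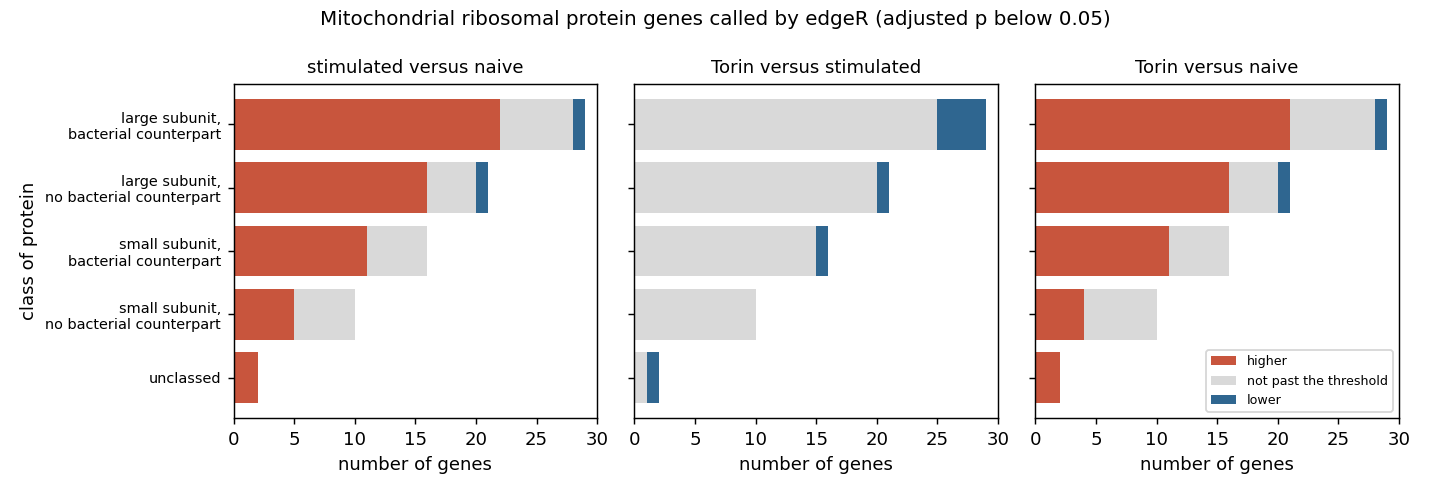
Number of members higher (red), lower (blue) or not past the threshold (grey) in each class of protein, for the 3 comparisons, each by edgeR at an adjusted p below 0.05. Red fills most bars against naive cells, for 56 members on stimulation and 54 with Torin, while grey fills the comparison of Torin with stimulated cells, where 7 members are blue and none red.

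Both genes that fell belong to the large subunit. Mrpl58, which encodes a peptidyl-tRNA hydrolase built into the mitochondrial ribosome that frees stalled chains, had 125, 87.1, 122 and 71.8 CPM in naive against 59.1, 44.7, 63.7 and 51.7 CPM in stimulated libraries. Every stimulated library lay below every naive one, and the log2 change was -0.89 (SE 0.20, adjusted p = 0.00379, edgeR). Mrpl10, which anchors the stalk proteins on the ribosome, had 44.9, 35.3, 40.6 and 25.4 CPM against 22.4, 24.0, 29.7 and 19.1 CPM. Its groups overlapped, since naive 4 lay below stimulated 3, but it was lower on stimulation in 4 of 4 numbers (log2 change -0.62, SE 0.19, adjusted p = 0.024, edgeR). That call ended without naive 1 (-0.51), naive 3 (-0.57), stimulated 1 (-0.59), stimulated 4 (-0.53) or Torin 4 (-0.53). With only the libraries whose description opens with the letter S, neither fall was called (-0.75 for Mrpl58, adjusted p = 0.134, and -0.43 for Mrpl10, adjusted p = 0.389, edgeR). With library totals alone Mrpl18, Mrpl24, Mrps34, Mrpl4, Mrpl48, Mrps26 and Mrpl34 were also called lower.

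Some members varied more among stimulated libraries than between groups. Mrps18c stood at 140.0, 259, 244 and 234 CPM in naive against 119, 426, 746 and 238 CPM in stimulated libraries (log2 change 0.80, SE 0.44, adjusted p = 0.179, edgeR). Without stimulated 1 the change was called (1.10). Mrps25 had 36.8, 43.1, 45.3 and 33.9 CPM against 11.3, 53.0, 92.6 and 23.4 CPM. Mrps31 had 6.30, 5.93, 7.90 and 8.86 CPM against 2.62, 11.6, 15.6 and 5.46 CPM. In these genes, as in Mrpl48 (23.5, 49.0, 62.6 and 28.6 CPM) and Mrpl24 (47.2, 74.7, 110.0 and 58.5 CPM), stimulated 2 and 3 lay above stimulated 1 and 4. The cause of this split was not tested. Over all members, the coefficient of variation among stimulated libraries had a median of 16.2% and ranged from 1.43 to 80.3%, against 2.69 to 41.0% in naive and 0.614 to 30.7% in Torin libraries. Exons of Mrps25 overlap those of Nr2c2, on the other strand, over 69.8% of their length in GENCODE M21, and those of Mrps34 overlap Mapk8ip3 over 63.4%. The labels do not say whether counting used the strand, so reads of such pairs may not be told apart.

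The second comparison asked how Torin altered the response. Few members passed the threshold, all of them lower: 7 of 78 were lower with Torin, 0 were higher and 71 did not pass the threshold (edgeR, adjusted p below 0.05), and among all genes tested 4.62% were called, 2.32% higher and 2.3% lower. The median log2 change was -0.22 over the members and -0.02 over all genes. Torin libraries lay wholly below stimulated ones in 23 members (10.1% of all genes) and wholly above in 4 (9.56% of all genes). The members summed to 13700 to 14000 CPM with Torin, below the 14600 to 21100 CPM of the stimulated libraries, and to 1.31 to 1.34% of all counts against 1.40 to 1.53%. With library totals alone the median of all genes moved to 0.11, with 719 of the 22238 genes higher and 345 lower. The median of the members moved to -0.06, and the calls became 3 higher and 6 lower. The number of calls rested on few libraries: leaving out Torin 1 or Torin 3 gave 0, leaving out stimulated 2 gave 1, leaving out stimulated 4 gave 2 and leaving out Torin 4 gave 3. With the replicate number as a block it was 4, 2 lower and 2 higher, and by DESeq2 18, 16 lower and 2 higher.

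Of the 7 that fell, Mrpl35, Mrpl20, Mrpl32 and Mrpl47 are large-subunit proteins with a bacterial counterpart, Mrpl50 is one without, Mrps14 belongs to the small subunit and Mrps36 is unclassed. All 7 had risen on stimulation, a comparison that shares the stimulated libraries with this one. Mrpl35, at 346, 486, 553 and 441 CPM in stimulated libraries, had 247, 197 and 239 CPM in Torin 1, 3 and 4. Every Torin library lay between the naive and the stimulated ones, and the log2 change was -1.0 (SE 0.18, adjusted p = 0.0148, edgeR). Mrpl50, at 156 to 236 CPM in stimulated libraries, had 101, 76.7 and 114 CPM with Torin (log2 change -0.97, SE 0.19, adjusted p = 0.023, edgeR). Mrps14 fell from 723, 879, 1160 and 856 CPM to 545, 429 and 516 CPM (-0.87, SE 0.19, adjusted p = 0.0303, edgeR). In Mrps14, too, the 3 Torin libraries stood above the naive ones, which reached 344 CPM. Mrpl32, known for its maturation by a mitochondrial membrane protease, fell from 162, 255, 221 and 194 CPM to 116, 94.8 and 138 CPM (-0.84, SE 0.18, adjusted p = 0.0303, edgeR). Mrpl20 fell from 606 to 929 CPM over the stimulated libraries to 450.0, 401 and 462 CPM (-0.81, SE 0.17, adjusted p = 0.027, edgeR).

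The remaining 2 of the 7 moved less. Mrps36 fell from 293, 309, 435 and 369 CPM to 225, 188 and 230.0 CPM (-0.71, SE 0.17, adjusted p = 0.041, edgeR), and Mrpl47 from 61.8, 86.1, 88.0 and 79.5 CPM to 50.3, 47.5 and 52.8 CPM (-0.65, SE 0.16, adjusted p = 0.0423, edgeR). Exons of Mrpl47 overlap those of Ndufb5, at a mean of 347 CPM, over 13.9% of their length on the other strand. In all 7, the stimulated and Torin groups did not overlap, stimulated 1 was the lowest stimulated library, Torin 3 was the lowest Torin library, and the level was lower with Torin in 3 of 3 numbers. With the replicate number as a block, Mrpl35 and Mrpl32 kept their calls. The blocked change was -0.91 for Mrpl50 (adjusted p = 0.05, edgeR), -0.75 for Mrpl20 (0.0531), -0.81 for Mrps14 (0.0604), -0.69 for Mrps36 (0.0808) and -0.59 for Mrpl47 (0.0804). The direction was the same in every alternative fit of these 7 genes.

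**Figure D3:**
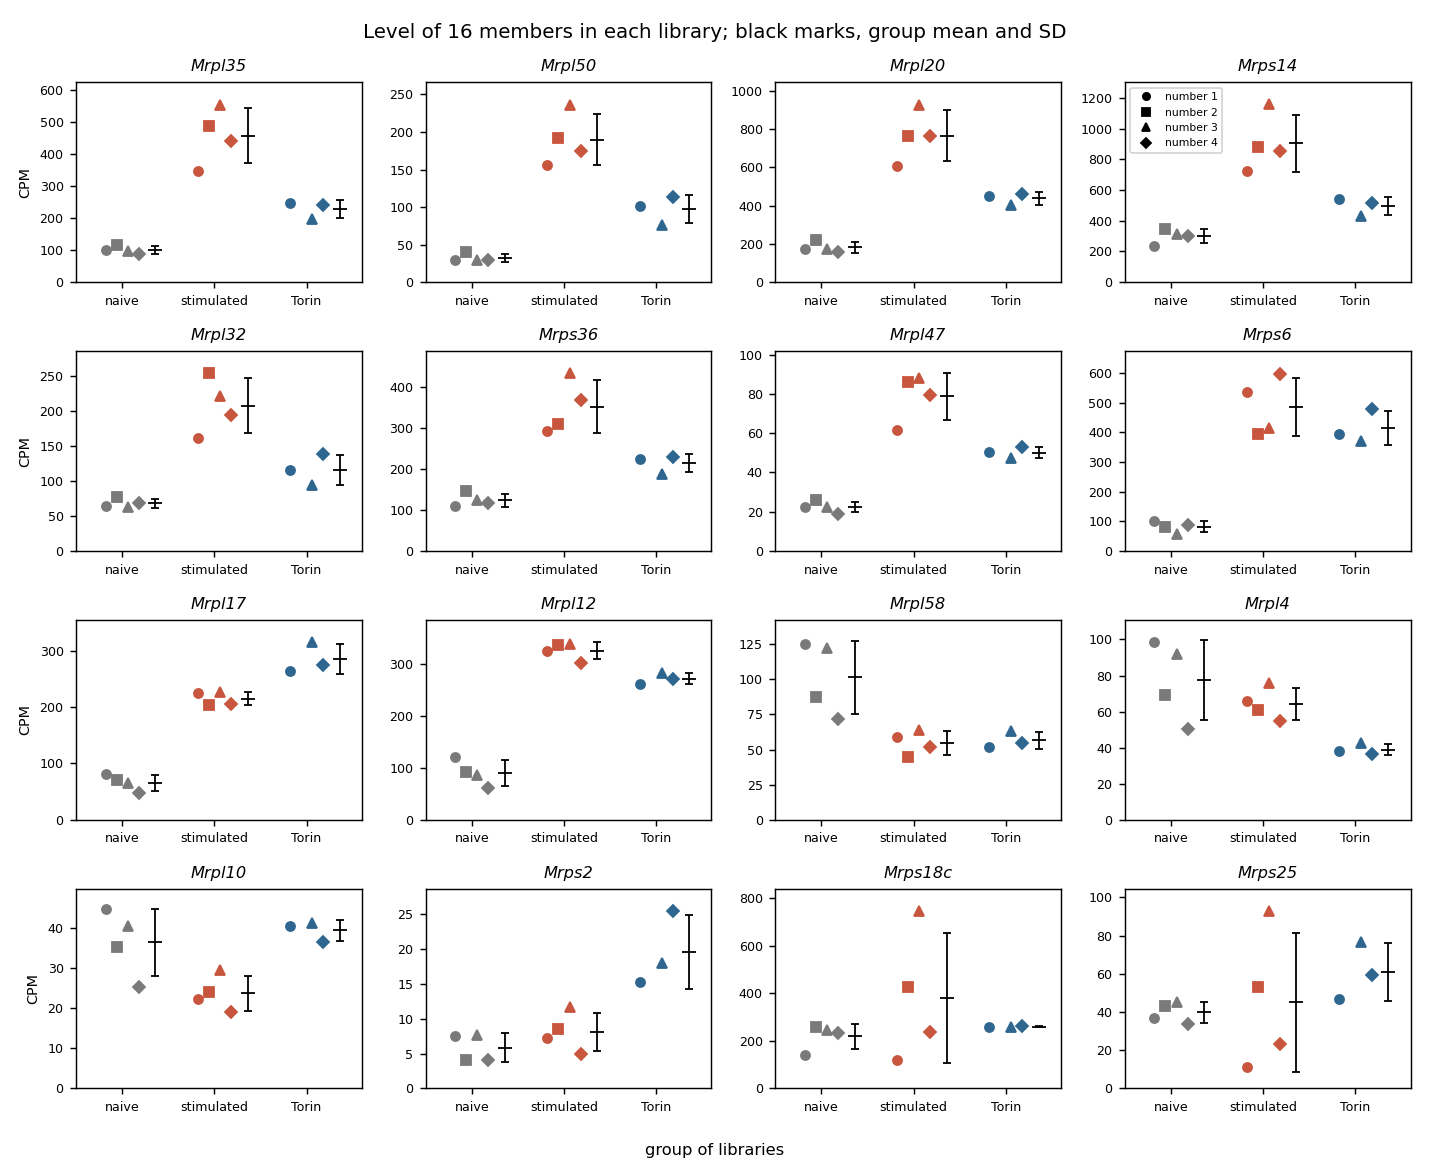
CPM of 16 members in each naive (grey), stimulated (red) and Torin (blue) library, with symbols for the replicate number and black marks for the group mean and SD. The first 7 panels are the members lower with Torin, where the Torin points lie between the naive and the stimulated points, while Mrps2 and Mrpl10 lie higher with Torin than when stimulated and Mrps18c and Mrps25 spread widely among stimulated libraries.

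Among the members that did not pass, the fitted changes ran from -0.72 (Mrpl4) to 1.27 (Mrps2). Mrps2, the member with the lowest level per length in naive and stimulated libraries, stood at 7.29, 8.55, 11.6 and 4.93 CPM in stimulated and 15.2, 17.9 and 25.4 CPM in Torin libraries. The groups did not overlap, and the adjusted p was 0.0605 by edgeR (SE 0.34) and 0.0058 by DESeq2. Mrpl10, one of the 2 genes lower on stimulation, had 22.4 to 29.7 CPM in stimulated and 40.7, 41.3 and 36.5 CPM in Torin libraries (log2 change 0.73, adjusted p = 0.0704, edgeR), and with the block it passed (0.75, adjusted p = 0.0462). Mrpl23 had 248, 325, 539 and 263 CPM against 538, 694 and 472 CPM (0.72, adjusted p = 0.16, edgeR), and with the block it passed too (0.78, adjusted p = 0.0467). A processed pseudogene of it, Mrpl23-ps1, held 26.9 to 110.0 CPM, so part of its reads may be assigned to either copy. Mrpl17 had 224, 203, 227 and 206 CPM in stimulated and 264, 315 and 275 CPM in Torin libraries, wholly above, but did not pass (0.41, adjusted p = 0.216, edgeR). Mrpl4 had 65.6, 61.0, 76.0 and 54.8 CPM against 38.1, 42.3 and 36.4 CPM, wholly below (-0.72, adjusted p = 0.0928, edgeR). Mrpl33, at 1110, 902 and 980.0 CPM with Torin, was also wholly below (-0.71, adjusted p = 0.0654, edgeR). Mrps6, the gene with the largest rise, had 395, 370.0 and 478 CPM with Torin, within the stimulated range of 393 to 597 CPM but for Torin 3 (-0.23, SE 0.22, adjusted p = 0.634, edgeR). Mrpl58 had 52.0, 63.5 and 54.6 CPM against 44.7 to 63.7 CPM, and Mrps18b 152, 179 and 149 CPM against 127 to 175 CPM.

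**Figure D4:**
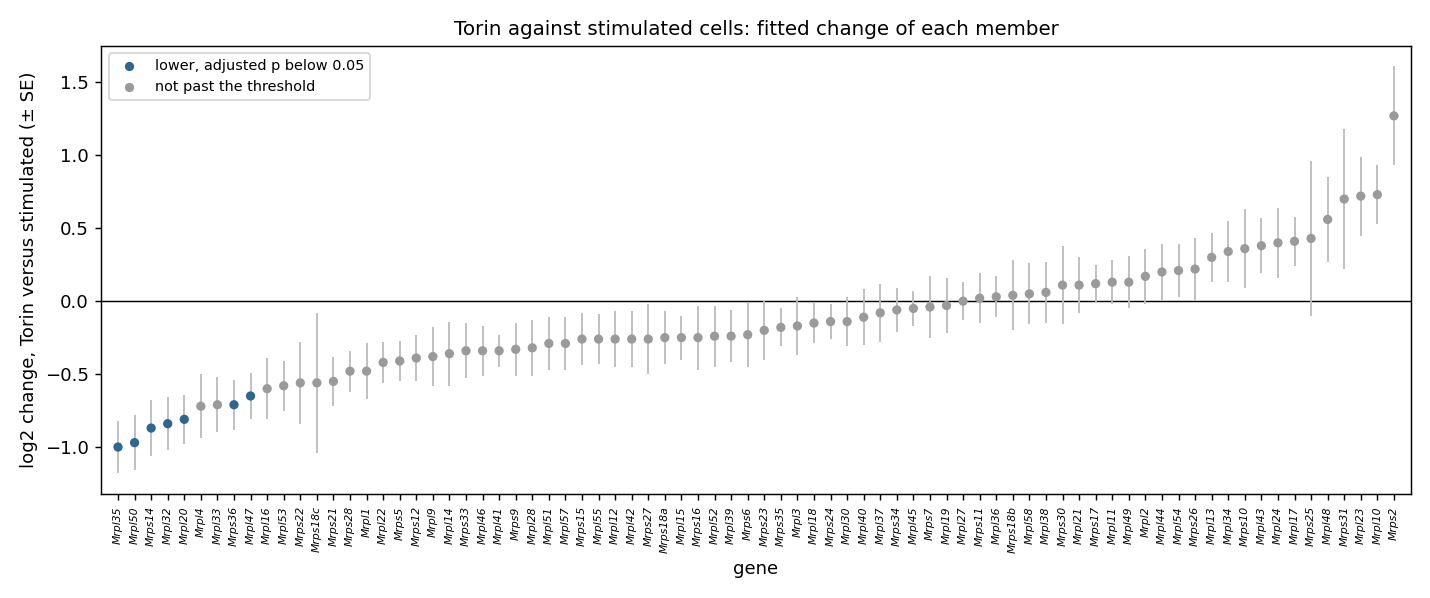
Fitted log2 change of each of the 78 members between Torin and stimulated libraries, with its SE, in order of size. The 7 members past the threshold (blue) lie between -1.0 and -0.65, and 52 of the 78 values are below 0.

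Set against naive cells, most members were higher in Torin libraries too. In this comparison, which shares libraries with both others, 54 members were higher, 2 were lower and 22 did not pass (edgeR). Of all genes tested 32.2% were called, 16.4% higher and 15.8% lower. The median log2 change was 0.85 over the members and -0.18 over all genes, or 0.51 and -0.52 with library totals alone. Under that scaling 37 members were higher and 3 lower, against 2284 higher and 4553 lower among all 22238 genes. Torin libraries lay wholly above naive ones in 61 members (21.1% of all genes) and wholly below in 2 (22.4% of all genes). Of the large-subunit proteins 37 of 50 were higher and 2 lower. Mrps6 was again at the top, with a log2 change of 2.35 (SE 0.22), and Mrpl17 followed with 2.11 (SE 0.17), from 47.2 to 81.7 CPM in naive libraries to 264 to 315 CPM. Mrps2 stood at 7.56, 4.09, 7.65 and 4.05 CPM in naive cells and rose with Torin by 1.74 (SE 0.34, adjusted p = 0.00262, edgeR), and Mrpl23 by 1.28 (SE 0.27, adjusted p = 0.004, edgeR). The stimulation change of these last 2 was 0.47 and 0.55 without passing.

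The 2 members lower than in naive cells were Mrpl4 and Mrpl58. Mrpl4, a core protein of the large subunit, had 98.5, 69.1, 91.9 and 50.5 CPM in naive libraries and 36.4 to 42.3 CPM with Torin (log2 change -0.99, SE 0.22, adjusted p = 0.00561, edgeR). Its change on stimulation alone was -0.27 (adjusted p = 0.322, edgeR). The change of Mrpl58 was -0.84 (SE 0.21, adjusted p = 0.0111, edgeR), and its call ended without Torin 1 (-0.78) or Torin 4 (-0.70). With only the libraries whose description opens with the letter S, neither call held (-0.85 for Mrpl4, adjusted p = 0.154, and -0.72 for Mrpl58, adjusted p = 0.171, edgeR). Mrpl10 stood near its naive level, with 36.5 to 41.3 CPM against 25.4 to 44.9 CPM (0.11, SE 0.20). Mrpl54 passed as higher, at 346 ± 31.9 CPM (n = 3) against 241 ± 24.7 CPM (0.52, adjusted p = 0.0422, edgeR). That call ended without any of naive 1 to 4, stimulated 2, stimulated 4, Torin 1 or Torin 3, over which the change ran from 0.45 to 0.56.

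Levels per length, in TPM (transcripts per 1000000 transcripts, computed within each library), spread over a wide range. In stimulated libraries Mrpl33 (2390 ± 146 TPM, n = 4), Mrpl52 (1280 ± 76.0) and Mrps21 (934 ± 55.5) were the highest, and these 3 were also clear of each other's spread. Mrps2 (2.73 ± 0.696 TPM), Mrps31 (3.95 ± 2.23) and Mrps25 (5.20 ± 3.50) were the lowest and did not differ beyond their spread. Leading transcripts of the members had a GC content of 39.6 to 60.4%. Over the 26 members with the lowest GC the median change on stimulation was 1.53 on the log2 scale, against 0.70 and 0.84 over the 26 in the middle and the 26 with the highest. Across the 78 members Pearson's r of GC with that change was -0.32, and across 14243 protein-coding genes it was -0.09, in libraries that all share these values. Length showed little relation, with r of 0.01 over the members.

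Transcript forms of these genes changed on stimulation about as often as those of all genes. The share of a transcript in the counts of its gene was tested by limma on log2 ratios to the other transcripts of the gene, for 96 transcripts of 39 members. Of these, 12 transcripts of 8 genes changed between naive and stimulated cells, a share near the 12.1% called among the 11971 transcripts tested over all genes, so the count is no result about the members and the forms below are described one by one. Transcripts annotated as protein coding held 90.2 to 91.4% of the members' counts in naive, 93.1 to 93.9% in stimulated and 92.6 to 93.4% in Torin libraries. The following parts distinguish 3 of the transcripts, read from GENCODE M21 and printed 5′ to 3′. Exon 3 of Mrpl13-205 (94 bases, all coding) is skipped in Mrpl13-202, which is annotated for nonsense-mediated decay, and exon 2 of Mrps18c-201 (62 bases, all coding) is skipped in Mrps18c-206, which has the same annotation. Neither length is a multiple of 3. The intron between coding exons of Mrpl53-201 (95 bases) is kept in Mrpl53-202, and capitals mark its first and last 2 bases.
Mrpl13-205 exon 3: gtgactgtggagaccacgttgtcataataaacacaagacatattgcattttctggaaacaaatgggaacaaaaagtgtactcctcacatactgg
Mrps18c-201 exon 2: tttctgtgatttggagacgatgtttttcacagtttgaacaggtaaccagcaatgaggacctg
Mrpl53-202 kept intron: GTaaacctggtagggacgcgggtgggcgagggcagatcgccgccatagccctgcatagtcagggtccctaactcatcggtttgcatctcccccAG
The coding form of Mrpl13 gained. Its decay-annotated transcript Mrpl13-202, without exon 3, held 30.8, 29.2, 39.0 and 36.4% of the gene's counts in naive and 18.9, 12.3, 16.5 and 16.5% in stimulated libraries (limma adjusted p = 0.0086). The coding transcript Mrpl13-205 rose from 59.1 to 68.3% to between 79.2 and 85.8% (limma adjusted p = 0.00734), so the groups did not overlap in either form. Mrpl53-202, with the intron kept, fell from 11.5, 10.9, 12.9 and 9.23% to 5.41, 4.78, 4.78 and 4.42% (limma adjusted p = 0.00418). Exons of Mrpl53 lie over 88.0% of their length within those of Gm42688 on the same strand, a gene at a mean of 5.46 CPM. Mrps18c-206, without exon 2, fell from 9.60, 7.60, 10.1 and 9.06% to 4.13, 4.65, 6.25 and 3.99% (limma adjusted p = 0.0236), in a gene whose total varied widely. Retained-intron transcript Mrps24-203 fell from 16.5 ± 0.808% to 9.45 ± 1.36% (n = 4 each).

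Not all shifts went toward the coding form. Mrpl28-201, a coding transcript, fell from 89.7 ± 3.75 to 73.2 ± 4.70% of the counts of Mrpl28 (n = 4 each). Mrpl39-202, a retained-intron transcript, rose from 8.82, 9.38, 5.98 and 6.99% to 16.6, 19.4, 32.7 and 18.0% of the counts of Mrpl39 (limma adjusted p = 0.0129). In Mrpl58 the coding transcript Mrpl58-202 rose from 50.4 ± 2.61 to 69.0 ± 4.39% while the gene's level fell, and in Mrpl24 Mrpl24-202 rose from 44.8 ± 2.84 to 71.9 ± 9.74% as Mrpl24-201, also coding, fell from 39.1 ± 4.21 to 19.6 ± 9.88%. Between Torin and stimulated libraries limma called 0 of the 96 transcripts, with 12 at an unadjusted p below 0.05, and 0.117% of all transcripts. The smallest adjusted p was 0.25. With Torin the intron-keeping Mrpl53-202 held 7.56, 8.66 and 7.69%, above each stimulated library and below each naive one (adjusted p = 0.27, limma), and Mrpl39-202 held 13.6, 10.9 and 10.7%, below each stimulated library (adjusted p = 0.352, limma).

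**Figure D5:**
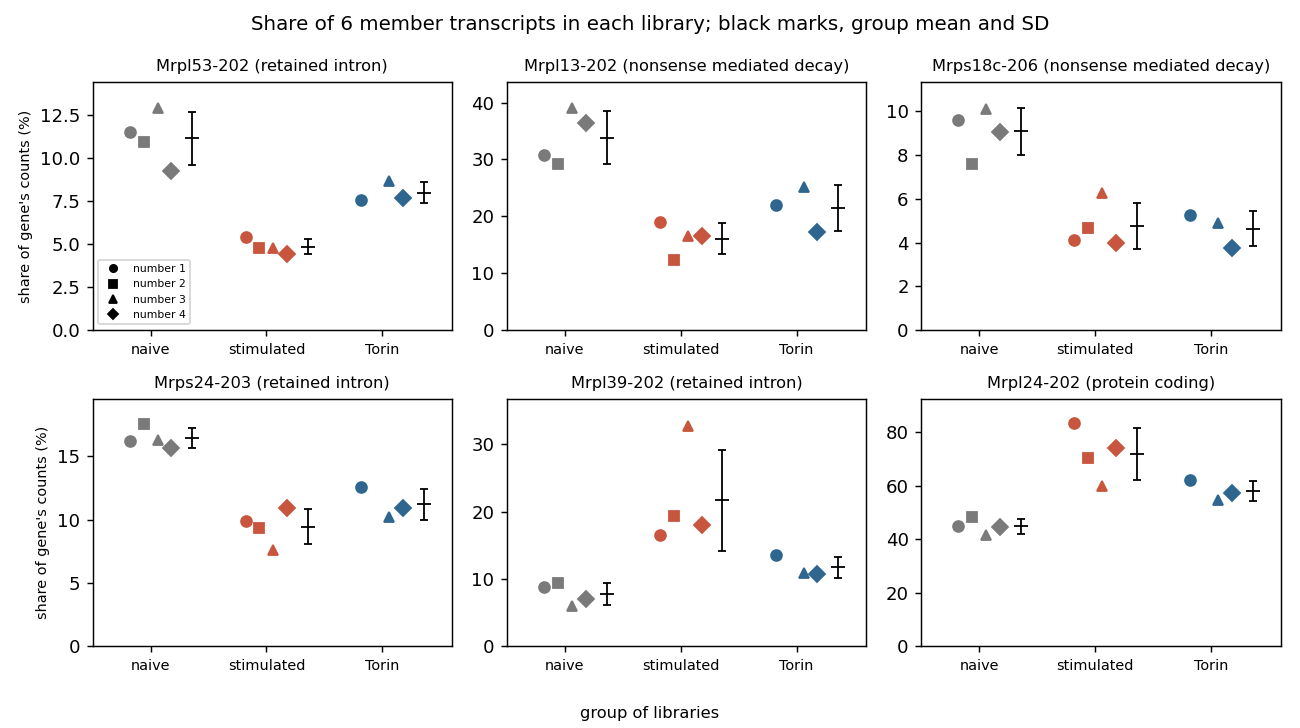
Share (%) of 6 transcripts in the counts of their gene in each naive (grey), stimulated (red) and Torin (blue) library, with symbols for the replicate number and black marks for the group mean and SD. The naive and stimulated points do not overlap in any panel; Mrpl39-202 and Mrpl24-202 are higher and the other 4 lower in stimulated libraries.

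Other genes that make and use the mitochondrial ribosome gave mixed results. Among all genes tested 39.5% were called on stimulation and 4.62% with Torin against stimulated cells. Counts near these shares are no result about a list. Of 5 ribosome proteins with other names 4 rose on stimulation and 1 fell with Torin, Chchd1, a small-subunit protein, from 631, 1190, 1170 and 786 CPM to 508, 429 and 483 CPM (log2 change -0.99, adjusted p = 0.0336, edgeR). Dap3, a GTP-binding protein of the small subunit, stood at 25.2 to 35.3 CPM in naive against 32.3 to 42.1 CPM in stimulated libraries without passing. Of 28 assembly and ribosomal RNA modification factors 9 rose and 3 fell on stimulation (median log2 change 0.15), and 0 were called with Torin against stimulated cells. Fastkd2, which binds mitochondrial ribosomal RNA, was at the top with 1.17 to 5.54 and 9.84 to 12.4 CPM (log2 change 1.99), and Ngrn at the bottom with 28.0 to 37.3 and 16.6 to 26.5 CPM (-0.61). With library totals alone 4 of the 28 were higher and 5 lower, and their median was -0.35. Among all 22238 genes that scaling gave 2600 higher and 6529 lower on stimulation. Of 13 translation factors 5 rose and none fell (median 0.12), but with library totals alone 3 were higher and 4 lower (median -0.39). The largest change was that of the elongation factor gene Gfm1 (3.38 to 5.47 and 11.3 to 16.2 CPM, 1.74). Tufm, which brings aminoacyl-tRNA to the ribosome, had 144, 109, 108 and 124 CPM in stimulated and 83.3, 77.4 and 73.9 CPM in Torin libraries, wholly below, but did not pass (-0.64, adjusted p = 0.0712, edgeR).

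Genes for mitochondrial RNA expression included Slirp, with the largest change among these lists. Of 10 such genes 6 rose on stimulation and 2 fell with Torin, Slirp and Pnpt1. Among all genes 19.2% were called higher on stimulation and 2.3% lower with Torin against stimulated cells. Slirp, which stabilises mitochondrial messenger RNAs together with Lrpprc, had 106, 164, 118 and 111 CPM in naive, 591, 979, 1170 and 753 CPM after stimulation, and with Torin 351, 272 and 366 CPM. Its log2 change was 2.81 on stimulation (adjusted p = 1.18e-05, edgeR) and -1.40 with Torin (adjusted p = 0.0149, edgeR). Pnpt1, the mitochondrial polynucleotide phosphorylase, had 6.01, 10.1, 6.83 and 10.9 CPM in stimulated and 2.27, 2.22 and 3.89 CPM in Torin libraries (-1.60, adjusted p = 0.0332, edgeR). Tfam, which packages mitochondrial DNA, had a change of 0.02 on stimulation. Among the 13 messages that this ribosome translates 4 rose on stimulation, mt-Nd1, mt-Nd3, mt-Co2 and mt-Co3, and 0 were called with Torin against stimulated cells. The shares called over all genes were 39.5% and 4.62%, so these counts are no result about the 13 messages. With library totals alone 1 was higher and 1 lower on stimulation, and the median was 0.05 in place of 0.54. The complex I gene mt-Nd1 had 927, 1460, 990.0 and 1150 CPM in naive against 2130, 3560, 3190 and 3090 CPM in stimulated libraries, while mt-Co1 overlapped between them (2720 to 5210 against 3060 to 5120 CPM). Neither mitochondrial ribosomal RNA passed in any comparison, in libraries whose kit, per the labels, takes up poly(A) RNA.

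Cytosolic ribosomal protein genes served as the nearest comparison. Of the 79 tested, 64 rose and 1 fell on stimulation, with a median log2 change of 0.87 against 1.02 for the mitochondrial set. With Torin against stimulated cells 5 rose and 2 fell, with a median of 0.15 against -0.22. Against naive cells 75 were higher and 0 lower with Torin, with a median of 1.05 against 0.85. Over all genes 19.2% were called higher on stimulation and 16.4% with Torin against naive cells. With Torin against stimulated cells 2.32% of all genes were called higher and 2.3% lower. With library totals alone the median with Torin against stimulated cells was 0.30 for the cytosolic and -0.06 for the mitochondrial genes. Whether both sets differ in their response was not tested.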

How the data were processed

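The authors deposited estimated counts per gene and per transcript for 11 libraries. The submitters' processing notes list mm39 and, with no roles given, DESeq2 1.30.1, StringTie 2.1.0, R 4.0.5, STAR 2.7.1a and SAMtools 1.9. All values were whole numbers, so none was rounded, and 0 columns went unused. The totals exceed usual read numbers for a reason not given in the sources used here, so precision rests on the spread between libraries and no counting interval was computed. Symbols came from GENCODE M21, matched by identifier without version for 52081 of 55414 genes (94.0%) and 138292 of 142435 transcripts. M21 is built on GRCm38, so no gene coordinates are given, and promoter windows come from RefSeq on GRCm38.p6.

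The gene tests used edgeR 4.0.16 (R 4.3.3) (filterByExpr with a minimum count of 10, TMM, quasi-likelihood F tests, all 11 libraries in 1 model of group means), adjusted over the 22238 genes tested. Transcript shares were tested with limma 3.58.1 on log2 ratios with 0.5 CPM added, for transcripts with at least 5% of a gene of at least 5 CPM. Alternatives were DESeq2 1.42.0, library totals alone, other filters, only the 2 groups compared, the replicate number as a block, the letter that opens the description (A, B or S, not explained in the labels) as a term or only S, and leaving out libraries or numbers.

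Deviations of log2 CPM from group means correlated between same-numbered libraries at 0.30 to 0.45 (stimulated and naive), 0.22 to 0.55 (Torin and stimulated) and 0.17 to 0.41 (Torin and naive), and at most at 0.15 between other numbers. On this check the numbers pair the libraries, while the labels do not explain them. In simulated data of 22238 genes edgeR recovered 10% of 2-fold and 61% of 4-fold changes (stimulated against naive), and 6% and 62% (Torin against stimulated). Each fold was given to 100 genes, drawn from all with a mean of at least 1 CPM. In the data far more genes were called, 39.5% and 4.62%, and the adjustment of p depends on that share. These rates thus cannot be read as those for the members, which were not simulated apart. For the transcript test 200 genes were changed. In each, the higher of 2 transcripts was cut 4-fold in 1 group and its loss given to the other. The tested ratio thus moved by more than 4-fold, and recovery of smaller shifts was not simulated. Of these genes limma recovered 93.5% and 89%, with 10 and 15 false calls among 4382 and 4346 genes tested.

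Members and gene lists were chosen with earlier results of these data known. Of the monocyte and macrophage markers, 1 is not reported here and was left out of their sum. Named were, in each comparison, the 8 members of largest and the 8 of smallest change, all called members (up to 20) with Torin against stimulated cells, those called lower on stimulation, the 3 highest and 3 lowest per length, and 10 fixed members. From each other list the ends of the range were eligible, from which some are given. Of transcripts, the 6 of smallest adjusted p were named. Named for their calls, after their values were seen, were mt-Co2, mt-Co3, Mrpl18, Mrps24 and Mrps35 and the transcripts of Mrpl24, Mrpl39, Mrps18c and Mrps24.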

Additional observations from a re-analysis of the deposited data

Results flagged for a closer look

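Among naive libraries, 3 members had 1 library set apart from the other 3 by a gap wider than Dixon's 95% limit for 4 samples. Mrpl50 stood at 39.6 CPM in naive 2 and at 29.6 to 30.1 CPM in the others, so its rise on stimulation was computed over a naive group with 1 higher library. Mrpl9 stood at 44.8 CPM in naive 1 and at 25.1 to 28.1 CPM in the others. Mrps34 stood at 85.6 CPM in naive 4 and at 115 to 120.0 CPM in the others. Without naive 4 the change of Mrps34 on stimulation passed the threshold as lower (-0.36, edgeR adjusted p = 0.0449), as did that with Torin against naive cells (-0.42, edgeR adjusted p = 0.0374). In all, 78 groups of 4 libraries were examined, and chance alone sets about 1 in 20 apart by this limit.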

How the results depend on the processing

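The count of members called on stimulation, in either direction, stayed within 1.5 times of 58 under each alternative run (55 to 60 without 1 library). The split by direction depended on the scaling, with 56 higher and 2 lower in the main fit but 37 and 9 with library totals alone. The count of transcripts also stayed within that range (12, and 10 to 12 without 1 library). With Torin against naive cells the count of 56 stayed within that range (49 to 58 without 1 library), except 32 with only the libraries of letter S. With Torin against stimulated cells the count of 7 became 14 with a mean of at least 5 CPM, 18 by DESeq2, 2 with the letter as a term, 0 with only letter S, 1 without number 2, 0 without number 4, and 0 to 9 without 1 library. With the replicate block it became 4. The block ended the calls of the 5 genes and began the 2 given above and no other among the 80 changes of named members, while on stimulation it gave 60 members and 10 transcripts. Of 1680 values of those changes under alternatives, 1506 kept direction and side of the threshold, 103 lost the call, 37 gained one and 34 changed sign. Among these 80, each change of sign was in a value that had not been called. Outside them, Mrps24 and Mrps35 were called higher on stimulation and changed sign with library totals alone (-0.09 and -0.12).

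On stimulation, library totals alone gave -0.20 for Mrpl54, -0.07 for Mrps2, -0.40 for Mrps25 and -0.27 for Mrps31. Mrps25 was -0.14 with the replicate block and -0.37 to 0.50 without 1 library, and Mrps31 -0.08 to 0.59. Mrpl24 was 0.05 with only letter S, 0.06 without number 4 and -0.31 to 0.04 without 1 library, and Mrps26 0.03, 0.06 and -0.20 to 0.03. With Torin against stimulated cells Mrpl58 was -0.02 with the replicate block or the letter as a term, -0.04 without number 2 and -0.04 to 0.11 without 1 library. Mrps18b was 0.00 with the replicate block, -0.04 without number 2 and -0.04 to 0.11 without 1 library, and Mrps30 -0.03 to 0.22. With Torin against naive cells, library totals alone gave -0.25 for Mrpl10, -0.27 for Mrpl34, -0.08 for Mrps18c and -0.27 for Mrps9, and a mean of at least 5 CPM gave -0.04 for Mrpl10, -0.10 for Mrpl34 and -0.08 for Mrps9. Without 1 library Mrpl10 was -0.03 to 0.28, Mrpl34 -0.01 to 0.17 and Mrpl9 -0.29 to 0.02. The cause was not tested. Where 1 library was left out of the Torin group 2 remained, and the fit pools their spread with the other groups.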

Other observations

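Levels summed by subunit moved side by side. The 50 genes of the large subunit summed to 4230 to 5040 CPM in naive, 9330 to 13400 CPM in stimulated and 8960 to 9250 CPM in Torin libraries. Those of the small subunit summed to 2350 to 2770 CPM, 4820 to 7020 CPM and 4350 to 4400 CPM. In both subunits every stimulated library lay above every naive and every Torin library, with stimulated 3 the highest. Exons of 33 members overlap those of another gene in GENCODE M21, and in 2 of them, Mrpl18 (with Tcp1) and Mrpl47 (with Ndufb5 and Actl6a), the overlap covers at least 10% of the member's exons and the other gene has the higher level.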
